A study of Mus musculus with 9 samples.

Results

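The Dppa genes (developmental pluripotency associated) are a set of transcripts named for their presence in pluripotent cells, here Dppa2, Dppa3, Dppa4 and Dppa5a, taken from the count table by the Ensembl identifiers that carry these symbols. All 4 were found among the 52550 rows and all 4 passed the filter on low counts, which left 11893 genes to test. They were measured in mouse embryonic stem (ES) cells of the V6.5 line, in 5 libraries labelled as double knockouts of the transcription factors KLF2 and KLF4 (DKO) and 4 labelled wild type (WT). Cells of both groups had the same medium, a Knockout DMEM base containing 15% FBS, with LIF and the inhibitor pair 2i (GSK and MEK inhibitors), conditions that hold naive pluripotency. The labels give no clone, allele, passage or deleted exon, and do not say whether replicates were separate cultures, so p-values measure only the spread between these libraries, which may be technical.

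The family shares a name and an expression pattern rather than one function. DPPA2 and DPPA4 are related nuclear proteins with a SAP domain that bind DNA as a pair. In mouse ES cells they keep developmental promoters poised and favour expression of the genes of 2-cell-like cells. DPPA3, also called Stella or PGC7, is a maternal factor that guards the maternal genome of the zygote from loss of DNA methylation, marks primordial germ cells, and holds UHRF1, the cofactor of the maintenance methyltransferase DNMT1, away from chromatin. DPPA5A, also called ESG1, is an RNA-binding protein with a KH domain.

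Each library was made from 600 ng of total RNA with a kit that reads the 3' ends of polyadenylated transcripts, and held 6035642 to 7098530 counts. A read then stands for about 1 transcript end, so levels of different genes can be set side by side without dividing by length, as far as their 3' ends were captured alike. Klf2 and Klf4 were higher in the libraries labelled DKO, with 3750 to 4044 counts of Klf2 against 3042 to 3297 in WT, and 9385 to 10778 counts of Klf4 against 5085 to 6183 in WT (log2 fold changes 0.42 and 0.91, both with an edgeR adjusted p under 0.05). The labels do not give the deleted parts, and reads from 3' ends do not show whether an intact protein is made. The knockout label could thus not be checked with these counts, and the group is called "labelled DKO" throughout. Of 8 ES cell markers all were detected in both groups and their summed level was 2396 to 2461 CPM (counts per 1000000, on TMM-scaled library sizes) in the libraries labelled DKO and 2304 to 2409 CPM in WT. Single markers moved both ways: 4 rose and 3 fell, among them Sox2 (log2 fold change 0.72) and Tdgf1 (-0.82). Of all tested genes 23.9% rose and 24.0% fell. Pou5f1, which encodes OCT4, did not pass and had few counted reads in both groups. It stood at 21.5 ± 3.16 CPM in the libraries labelled DKO and 23.9 ± 0.552 CPM in WT (SD, n = 5 and 4). Whether this count gives the level of the gene was not tested, as the handling of multi-mapped reads was not given. The 10 feeder fibroblast markers summed to 1.97 to 5.33 CPM in the libraries labelled DKO and 4.11 to 6.13 CPM in WT, with Lum at 0 in every library. Markers of primitive endoderm summed to 17.9 to 27.8 CPM in the libraries labelled DKO and 20.7 to 29.4 CPM in WT, most of it Col4a1, while Sox7 rose (2.99 CPM in the libraries labelled DKO and 0.148 CPM in WT), Dab2 fell (0.447 CPM in the libraries labelled DKO and 3.62 CPM in WT) and Sox17 had 4 counts in the libraries labelled DKO and 28 in WT. Those of trophoblast summed to 9.12 to 12.3 CPM in the libraries labelled DKO and 32.5 to 36.3 CPM in WT, most of the WT sum being Tfap2a, which fell with Gata3 (log2 fold changes -2.59 and -0.90), while Krt7 had 38 counts in the libraries labelled DKO and 4 in WT and Cdx2 had 31 counts in the libraries labelled DKO and 21 in WT, both untested. The part of these cells in the results on the Dppa genes was not tested, and in bulk RNA a change in the number of cells of a kind cannot be told apart from a change in RNA per cell.

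The Dppa genes did not change together. Dppa3 was far higher in the libraries labelled DKO, Dppa5a was about doubled, Dppa4 was slightly lower, and Dppa2 did not pass the test. Tested with edgeR's quasi-likelihood fit over all genes, with an adjusted p under 0.05 (Benjamini-Hochberg) counting as passing, 3 of the 4 passed, 2 of them upward and 1 downward. Of all tested genes 47.8% passed, 23.9% upward and 24.0% downward, so 3 of 4 members is read against that background and not as a result about the family. For 3 of the 4 the groups did not overlap, as for 37.4% of all tested genes.

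Dppa3 lies on chromosome 6 (GRCm38, 122626410 to 122630272, plus strand; ENSMUSG00000046323). It had 1540, 1507, 761, 1667 and 1785 counts in the libraries labelled DKO 1 to 5, and 61, 44, 51 and 83 counts in WT 1 to 4. The groups did not overlap, and the lowest library labelled DKO, number 3, still held several times the counts of the highest WT library. Its level was 231 ± 63.7 CPM in the libraries labelled DKO and 8.78 ± 2.24 CPM in WT (SD, n = 5 and 4), or 26.1-fold higher (log2 4.71, SE 0.35, adjusted p = 1.2e-05 in edgeR). Of the 11893 tested genes only 3 had a higher log2 fold change, named here after their values were seen: Kcna2, Zfp521 and Lrtm2, which averaged 3.12, 5.97 and 16.4 CPM in the libraries labelled DKO and were all below Dppa3 in level.

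Dppa3 was also the most variable of the family. Its coefficient of variation was 27.6% among the libraries labelled DKO, where the median of 1511 genes of like level (within 2-fold) was 5.36% and 99.9% of them varied less. In WT it was 25.6%, against a median of 14.3% over 3153 genes of like level. Among the libraries labelled DKO the lowest was number 3, at 125 CPM against 230 to 281 CPM in the other 4. On the log2 scale Dppa3 was 1.03 below the mean of the other 4 libraries there, a drop that 69 of the 11893 tested genes, Dppa3 included, reached or passed. The other members did not share it: the same difference was -0.18 for Dppa5a, -0.06 for Dppa2 and 0.04 for Dppa4. Without DKO 3 the log2 fold change of Dppa3 was 4.86 (edgeR adjusted p = 4.21e-22).

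**Figure D1:**
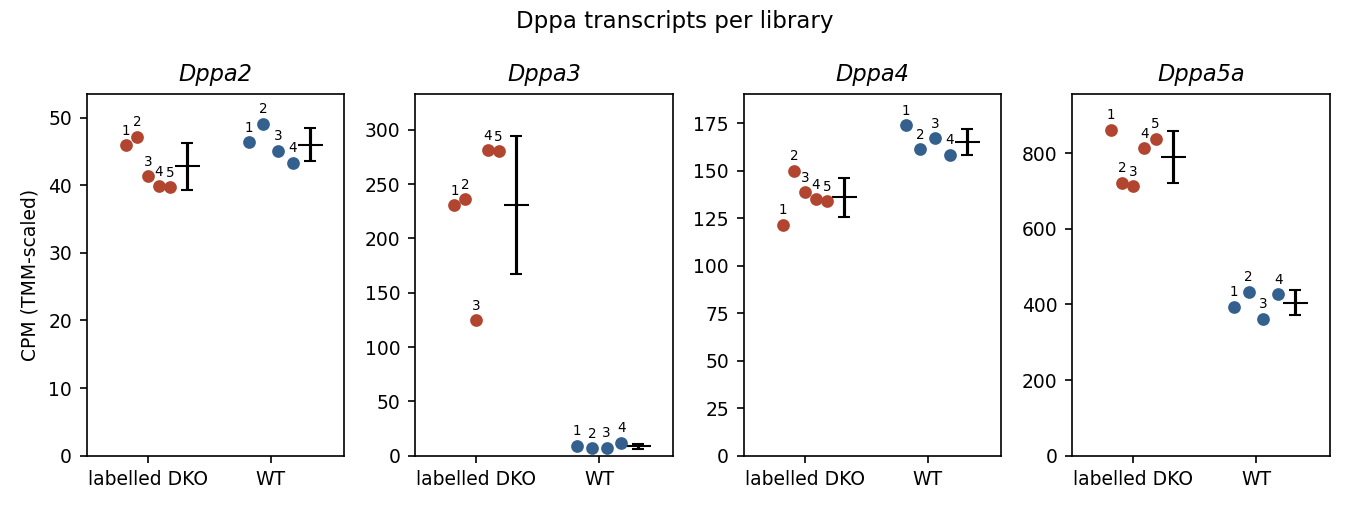
Level of each Dppa gene in CPM on TMM-scaled library sizes, in the 5 libraries labelled DKO (red) and the 4 WT libraries (blue). Numbers are replicates, and bars beside the points give the mean ± SD. The groups are apart for Dppa3, Dppa5a and Dppa4 and overlap for Dppa2, and Dppa3 in DKO 3 lies at 125 CPM, below the other 4 libraries of its group.

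A processed copy of the gene, Dppa3-ps on chromosome X (37625647 to 37626097, minus strand), gathered a few reads. It had 11, 7, 2, 7 and 12 counts in the libraries labelled DKO 1 to 5 and 0, 2, 0 and 0 counts in WT 1 to 4, so that it too was lowest in DKO 3 among the libraries labelled DKO. Its annotated transcript of 451 bases matched bases 116 to 566 of the 833-base Dppa3 transcript at 98.2% identity. Of its 50-base windows 33.6% were identical to the gene. The copy held 0.534% of the reads of both in the libraries labelled DKO (39 of 7299, exact 95% interval 0.380 to 0.730%) and 0.830% in WT (2 of 241, 0.101 to 2.97%), intervals that cover counting error only. Reads of the gene and the copy may be shared between them within the matched stretch, which stops short of the 3' end of the Dppa3 transcript. With both summed the log2 fold change of Dppa3 was 4.70.

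Dppa5a lies on chromosome 9 (78367052 to 78368177, minus strand; ENSMUSG00000060461) and was the most abundant member in every library. It had 5761, 4608, 4339, 4813 and 5337 counts in the libraries labelled DKO 1 to 5, and 2629, 2846, 2465 and 3003 counts in WT 1 to 4. Every library labelled DKO was above every WT library, as for 18.4% of all tested genes. Its level was 789 ± 68.2 CPM in the libraries labelled DKO and 404 ± 33.0 CPM in WT (SD, n = 5 and 4), or 1.95-fold higher (log2 0.97, SE 0.06, adjusted p = 2.2e-12 in edgeR), and 4.43% of tested genes had a log2 fold change at least as high. The pseudogenes Dppa5b and Dppa5c lie on the same chromosome and matched the Dppa5a transcript at 96.3% identity over 299 aligned bases. These were bases 79 to 377 of 619, short of its 3' end. Both had 0 counts in all 9 libraries.

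Dppa4 lies on chromosome 16 (48283733 to 48294237, plus strand; ENSMUSG00000058550). It had 813, 957, 844, 800 and 853 counts in the libraries labelled DKO 1 to 5, and 1162, 1058, 1137 and 1115 counts in WT 1 to 4. Every library labelled DKO was below every WT library, as for 19.1% of all tested genes. Its level was 136 ± 10.2 CPM in the libraries labelled DKO and 165 ± 6.82 CPM in WT (SD, n = 5 and 4), or a log2 difference of -0.28 with an SE of 0.06 (adjusted p = 0.00010 in edgeR). A change of this size or lower was held by 22.5% of tested genes.

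Dppa2, the partner of Dppa4, starts 20.2 kb downstream of the start of Dppa4 on the same strand (48303908 to 48319723; ENSMUSG00000072419). It had 307, 301, 252, 236 and 253 counts in the libraries labelled DKO 1 to 5, and 310, 322, 307 and 305 counts in WT 1 to 4. The groups overlapped, at 39.7 to 47.2 CPM in the libraries labelled DKO and 43.3 to 49.1 CPM in WT. Its log2 difference was -0.10 with an SE of 0.08 (adjusted p = 0.31 in edgeR), which does not show that the gene kept its level, and 37.6% of tested genes lay at or below it.

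Whether Dppa2 and Dppa4 changed in step was asked with the ratio of their counts within each library, which needs no scaling between libraries. The log2 ratio of Dppa2 over Dppa4 was -1.41, -1.67, -1.74, -1.76 and -1.75 in the libraries labelled DKO 1 to 5, and -1.91, -1.72, -1.89 and -1.87 in WT 1 to 4. DKO 1 was the highest of all 9 and the other libraries labelled DKO lay between -1.76 and -1.67, a range that holds WT 2. The means were -1.67 ± 0.15 in the libraries labelled DKO and -1.85 ± 0.09 in WT (SD, n = 5 and 4), a difference of 0.18 that did not pass (exact permutation p = 0.0714, 2-sided, over all divisions of the 9 libraries, the smallest possible p being 0.00794). Without DKO 1 the difference was 0.11 (exact permutation p = 0.114).

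**Figure D2:**
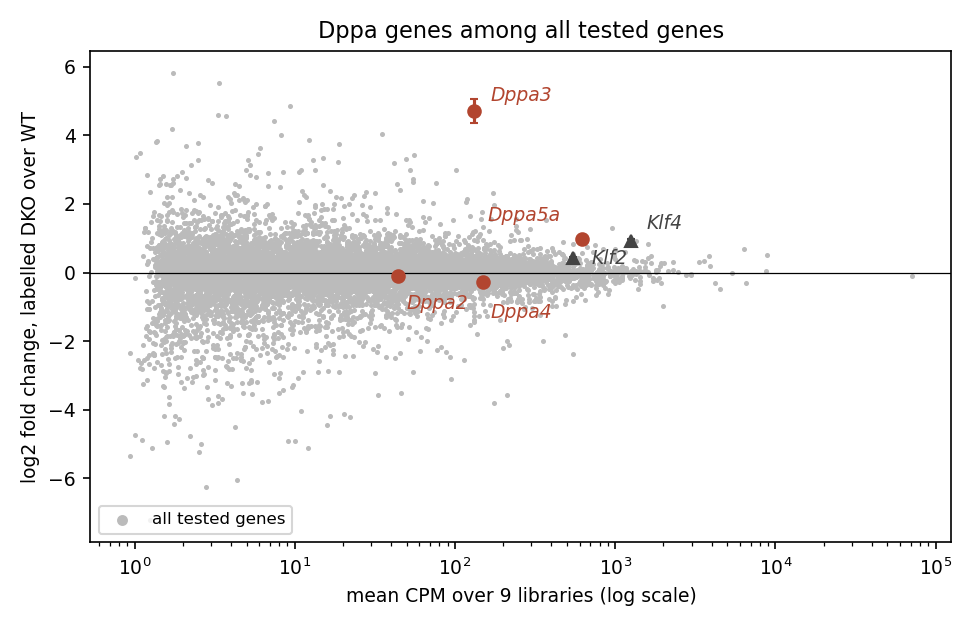
Log2 fold change of the libraries labelled DKO over WT against mean CPM over 9 libraries (log scale) for 11893 tested genes (grey), with the Dppa genes (red circles) and Klf2 and Klf4 (triangles); bars are SE. Dppa3 at 4.71 and Dppa5a at 0.97 lie above zero, Dppa4 at -0.28 and Dppa2 at -0.10 lie just below it.

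The order of levels within the family differed between the groups. In the libraries labelled DKO it ran from Dppa5a over Dppa3 and Dppa4 to Dppa2, with Dppa3 and Dppa4 not apart beyond their spread, since Dppa3 ranged from 125 to 281 CPM and Dppa4 from 122 to 150 CPM and DKO 3 had more Dppa4 than Dppa3. In WT the order was Dppa5a, Dppa4, Dppa2 and Dppa3, with no overlap between neighbours. By rank of mean level among tested genes, Dppa3 was number 860 in the libraries labelled DKO and 8286 in WT, and Dppa5a was number 130 in the libraries labelled DKO and 403 in WT. Dppa4 was 1565 in the libraries labelled DKO and 1286 in WT, and Dppa2 was 4232 in the libraries labelled DKO and 4001 in WT. Of all reads of the 4 members, Dppa5a held 62.5 to 70.0% in the libraries labelled DKO and 62.2 to 66.7% in WT, while Dppa3 held 12.3 to 22.2% in the libraries labelled DKO and 1.03 to 1.84% in WT. Dppa4 made up 9.65 to 13.6% of them in the libraries labelled DKO and 24.7 to 28.7% in WT.

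Dppa1, another gene of the name, was near absent, with 5 counts in all in the libraries labelled DKO and 3 in WT, where a floor of 3 counts in 1 library corresponds to 0.423 to 0.497 CPM.

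The chromosomal surroundings were compared because Dppa3 lies in a cluster of pluripotency genes and Dppa5a in one of oocyte genes. Within 500 kb of the start of Dppa3, 12 other genes were tested, with a median log2 fold change of 0.32 where that of all tested genes was 0.01. Of the 12, 7 rose, 2 fell and 3 did not pass, where 23.9% of all tested genes rose and 24.0% fell. The nearest were Gdf3, a ligand of the TGF-beta family 16.3 kb away, at 223 ± 11.2 CPM in the libraries labelled DKO and 175 ± 8.98 CPM in WT (log2 fold change 0.35), and Apobec1, a cytidine deaminase, which did not pass (0.80 ± 0.36, edgeR adjusted p = 0.071), but did without DKO 1, DKO 2 or DKO 5 (adjusted p 0.0235 to 0.0419) and with no low-count filter (0.0174). Nanog, 81.1 kb away, rose by 0.22, and Slc2a3, a glucose transporter 175.2 kb away, by 0.93, to 1711 ± 81.5 CPM in the libraries labelled DKO against 900 ± 28.2 CPM in WT. M6pr (0.52), a receptor of lysosomal enzymes, the Polycomb gene Phc1 (0.30) and Necap1 (0.23), of endocytosis, rose too, while Rimklb (-0.91), a peptide synthase, and Mfap5 (-2.27), of microfibrils, fell and the forkhead gene Foxj2 (-0.18) did not pass.

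The wider region was described the same way. Of 146 other tested genes within 10 Mb of Dppa3, 90 rose and 13 fell with a median log2 fold change of 0.33, where 23.9% of all tested genes rose and 24.0% fell, and 1 had a higher value than Dppa3. Around Dppa5a 29 of 91 genes rose and 22 fell (median 0.11), and around Dppa2 16 of 50 rose and 8 fell (median 0.14). The part of the region in the fold change of Dppa3 was not tested.

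Around Dppa5a, 11 genes were tested within 500 kb, of which 3 rose, 2 fell and 6 did not pass. Among all tested genes 23.9% rose and 24.0% fell. Ooep, an oocyte gene with a KH domain like Dppa5a and 10.5 kb from it, rose to 184 ± 10.9 CPM in the libraries labelled DKO, against 114 ± 7.94 CPM in WT (log2 fold change 0.69 ± 0.06, edgeR adjusted p = 4.5e-12). Gsta4 (0.53), a glutathione transferase, and Eef1a1 (0.28), a translation factor with many processed copies and so uncertain, rose, whereas Cgas (-1.38), the sensor of cytosolic DNA, and Ddx43 (-0.48), an RNA helicase, fell, the last not passing without DKO 4, DKO 5, WT 1 or WT 3 (edgeR adjusted p 0.0900 to 0.142). Fbxo9 (0.23), Ick (0.20), Elovl5 (-0.05), Slc17a5 (-0.04) and Mto1 (-0.09) did not pass, all as log2 fold changes. Near Dppa4 and Dppa2 the other tested gene was Morc1, a germline gene that silences transposons in mouse, at 39.8 ± 2.99 CPM in the libraries labelled DKO and 61.5 ± 4.74 CPM in WT (log2 fold change -0.63 ± 0.08, edgeR adjusted p = 2.7e-08).

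**Figure D3:**
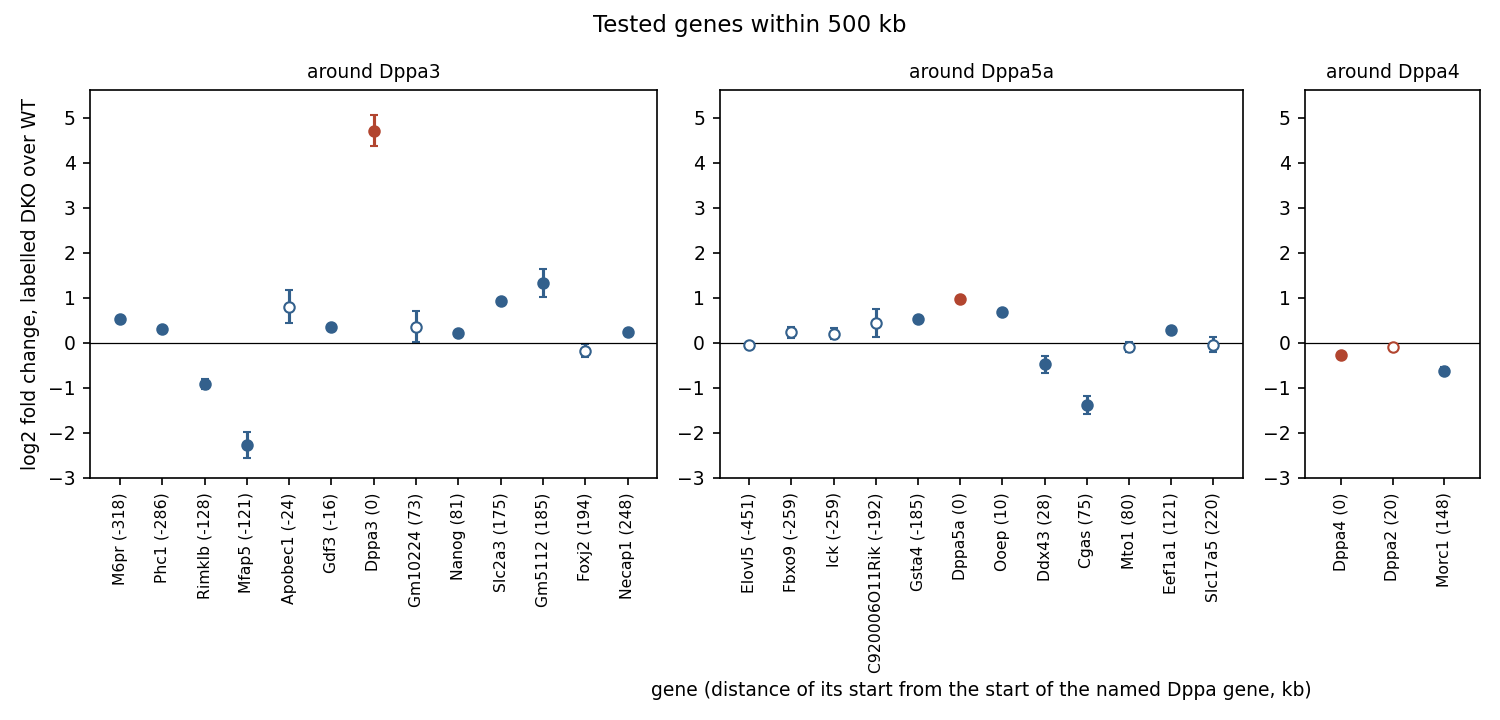
Log2 fold change (labelled DKO over WT, bars SE) of every tested gene whose start lies within 500 kb of Dppa3, Dppa5a or Dppa4, in chromosomal order with distances in kb; red marks Dppa genes and open circles did not pass. Dppa3 at 4.71 stands above its neighbours, the highest of which is at 1.33, while Dppa5a at 0.97 lies beside Ooep at 0.69.

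Likeness of pattern over the 9 libraries was measured by the root mean square difference of log2 CPM, each gene centred on its own mean. The most like genes were sought among those of at least 10 CPM, with predicted genes (Gm and Rik symbols) left out. For Dppa3 these were the homeobox gene Rhox9 (difference 0.44), the myelin genes Mobp (0.50) and Mbp (0.58), Rps6kl1 (0.75), a kinase-like gene, and the zinc finger gene Zmat4 (0.75), with log2 fold changes of 3.27 to 4.03. All 5 had their lowest level among the libraries labelled DKO in DKO 3, as Dppa3 did, at 44.2 CPM for Rhox9 against 58.6 to 74.0 CPM in the other 4, though for Zmat4 the gap was small (86.8 CPM against 87.9 CPM in DKO 1). Rhox9 has close copies, so its counts are uncertain, and these genes were picked for their likeness, which makes the shared dip a description. For Dppa5a the closest were the Polycomb gene Phc2 (0.07), Slc2a3 (0.08), AU020206 (0.08), Ints10 (0.09), of the Integrator complex, and the tetraspanin gene Cd9 (0.09). Slc2a3 is thus both a neighbour of Dppa3 and, at 0.93, among the genes most like Dppa5a. Cd9 also lies on chromosome 6 (125460266 to 125494791), within the 10 Mb around Dppa3 where 90 of 146 other tested genes rose.

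For Dppa4 likeness meant a small fall without overlap of the groups, and for Dppa2, whose groups overlapped, a nearly flat pattern. Dppa4 was closest to Reep4 (0.04), Cnot3 (0.05), of mRNA deadenylation, the RNA methyltransferase gene Nsun2 (0.05) and Sssca1 (0.05), which fell by 0.26 to 0.29 on the log2 scale. Dppa2 was closest to Gid8 (0.05), Nelfa (0.05), of the complex that pauses RNA polymerase, Fbxo21 (0.05), Usp37 (0.06), a deubiquitinase, and Jam3 (0.06), of which only Nelfa passed (log2 fold change -0.16, lost without WT 2 at an edgeR adjusted p of 0.0538).

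**Figure D4:**
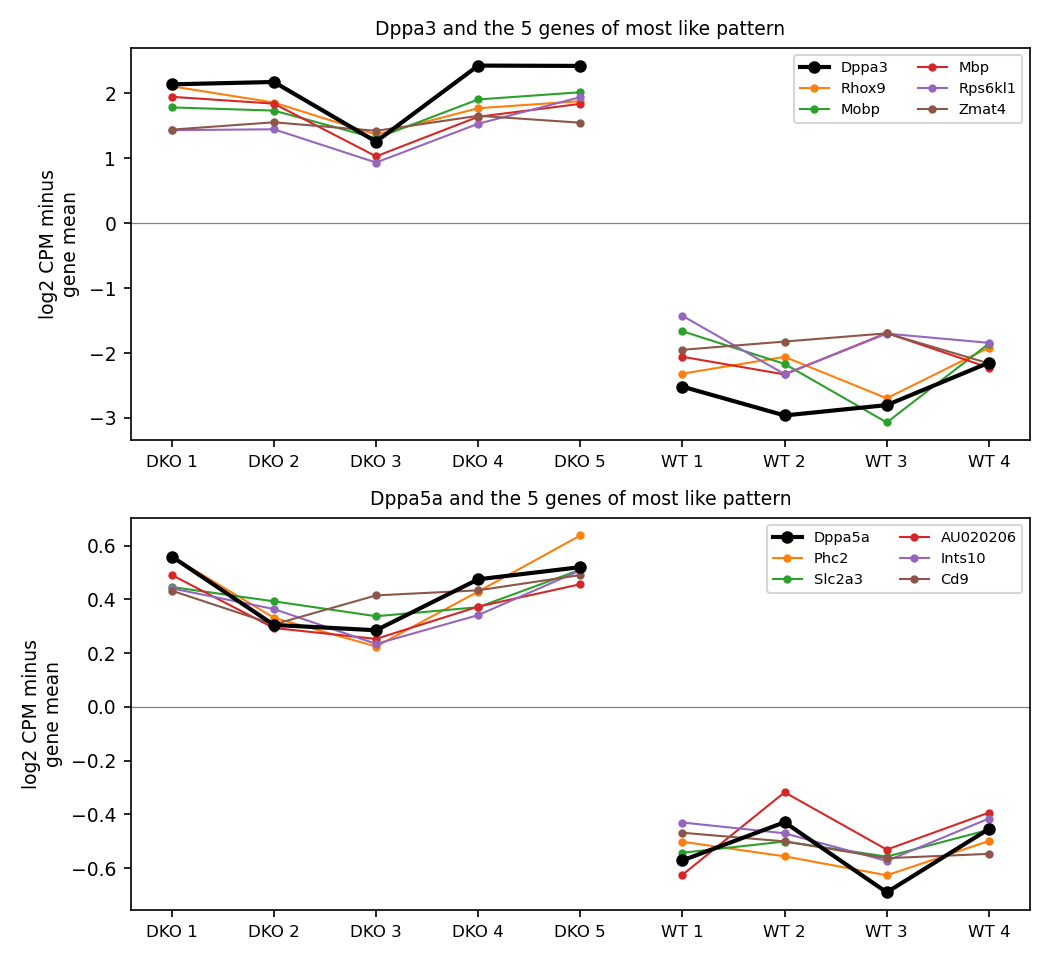
Log2 CPM minus each gene's mean over 9 libraries, for Dppa3 (top, black) and Dppa5a (bottom, black) with the 5 genes of most like pattern. The genes beside Dppa3 also have their lowest point among the libraries labelled DKO in DKO 3, Zmat4 by little.

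Dppa2, Dppa4 and Dppa5a were listed as ES cell associated transcripts (ECAT), and 7 further genes of that list were set beside them. Of these 3 rose, 3 fell and 1 did not pass, where 23.9% of all tested genes rose and 24.0% fell. Their median log2 fold change was 0.22, against 0.01 for all tested genes. This median is the value of Nanog, which like Gdf3 lies within 500 kb of Dppa3. Khdc3, a KH-domain gene of oocytes, fell to 31.2 ± 4.58 CPM in the libraries labelled DKO, against 172 ± 14.9 CPM in WT (log2 fold change -2.46 ± 0.08, edgeR adjusted p = 3.4e-21), in contrast to its KH-domain relatives Dppa5a and Ooep. Dnmt3l, a cofactor of de novo methyltransferases, fell by 2.38 on the log2 scale and Fbxo15 by 0.14, whereas Gdf3 and Nanog rose with Eras (0.90), a RAS-like GTPase of ES cells. Sox15 (0.30) did not pass.

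Oocyte KH-domain and maternal complex genes were tested for the relatives of Dppa5a. Of 11 listed, 5 had enough reads, of which Ooep rose and Khdc3, Nlrp4f (-1.31) and Tle6 (-0.86) fell, all as log2 fold changes, while Zbed3 did not pass. The median was -0.86, where that of all tested genes was 0.01, and of all tested genes 23.9% rose and 24.0% fell. Nlrp5 and Padi6, of the same maternal complex, had 1 and 29 counts in all in the libraries labelled DKO and 2 and 8 in WT.

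The list of DNA methylation enzymes and partners holds UHRF1, the protein that DPPA3 binds. Uhrf1 fell to 182 ± 10.5 CPM in the libraries labelled DKO, against 224 ± 6.48 CPM in WT (log2 fold change -0.30 ± 0.05, edgeR adjusted p = 1.2e-05), and its relative Uhrf2 rose to 72.7 ± 9.34 CPM in the libraries labelled DKO, against 41.8 ± 6.49 CPM in WT (0.80 ± 0.10). Of 13 tested genes 2 rose, Uhrf2 and Prdm14 (0.58), a germ cell regulator, 6 fell and 5 did not pass. Over all tested genes 23.9% rose and 24.0% fell. The median log2 fold change of the list was -0.13, against 0.01 for all tested genes. Tet3, the oxidase that acts in the zygote, fell by 1.18 on the log2 scale at a low level, 5.42 ± 1.37 CPM in the libraries labelled DKO and 12.3 ± 1.74 CPM in WT, and Dnmt3l fell most. Dnmt1 (0.10) and Dnmt3a (-0.13) did not pass.

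Primordial germ cell genes, among which Dppa3 is a classic marker, were set beside it. Of 13 tested 7 rose, 2 fell and 4 did not pass, where 23.9% of all tested genes rose and 24.0% fell, with a median log2 fold change of 0.37. Tfap2c, an AP-2 factor, rose to 260 ± 31.9 CPM in the libraries labelled DKO, against 66.3 ± 3.10 CPM in WT (1.97 ± 0.08), Prdm1 by 1.05 and the surface protein gene Ifitm3 by 0.68, while the RNA-binding Lin28a fell by 1.14 on the log2 scale and Dazl by 0.48. Alpl, alkaline phosphatase, did not pass (0.11). The germ cell genes Ddx4 and Dnd1 did not pass either, with Ddx4 at 4.55 CPM on average in the libraries labelled DKO and 4.14 CPM in WT and Dnd1 at 11.1 CPM in the libraries labelled DKO and 12.7 CPM in WT.

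Genes of 2-cell-like cells and reported targets of DPPA2 and DPPA4 were scarce. Of 18 listed, 1 was tested: Syce1, of the synaptonemal complex, did not pass in edgeR, with a log2 fold change of -0.51 ± 0.23 (unadjusted p = 0.0302, edgeR adjusted p = 0.061), nor in DESeq2 (adjusted p = 0.0906), but passed in limma-voom (adjusted p = 0.0392), and in edgeR without DKO 4 or without DKO 5 (adjusted p = 0.0173 and 0.0334). The 6 Zscan4 genes, close copies of each other, together had 15 counts in the 5 libraries labelled DKO and 28 in the 4 WT libraries. Duxf3 had 0 in all libraries. Nkx2-5, the other reported target, had 4 counts in all in the libraries labelled DKO and 24 in WT. The whole list summed to 4.60 to 7.93 CPM in the libraries labelled DKO and 8.81 to 11.4 CPM in WT. Without Syce1 and Nkx2-5 the ranges overlapped, at 0.628 to 2.98 CPM in the libraries labelled DKO and 2.70 to 4.34 CPM in WT. With so few counts no fold is given.

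DPPA2 is modified by SUMO through the ligase PIAS4, and the genes of SUMO conjugation were set beside it. Of 13 tested, 2 rose, 2 fell and 9 did not pass, where 23.9% of all tested genes rose and 24.0% fell. The median log2 fold change was 0.10, against 0.01 for all tested genes. The ligase gene Pias2 rose by 0.15 on the log2 scale (not passing without DKO 5 or WT 4) and the protease gene Senp2 fell by 0.57. Pias4 itself stood at 65.6 CPM on average in the libraries labelled DKO and 63.4 CPM in WT and did not pass, nor did Senp1 (0.12) and Senp6 (0.12). SUMO genes have processed copies, so their counts are uncertain.

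**Figure D5:**
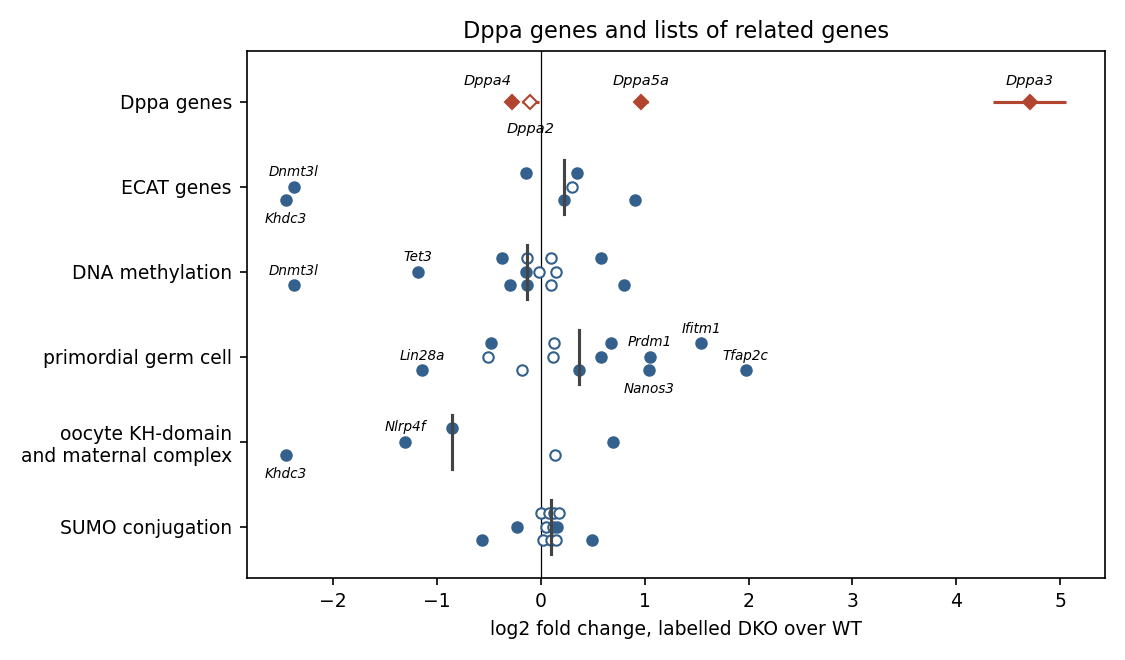
Log2 fold change (labelled DKO over WT) of the Dppa genes (diamonds, bars SE) and of the tested members of 5 lists (circles); open symbols did not pass and vertical bars are list medians. Dppa3 at 4.71 lies beyond every listed gene, the highest of which is Tfap2c at 1.97.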

How the data were processed

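The authors deposited raw read counts per Ensembl gene for 9 libraries, made with a QuantSeq 3' kit, per the labels' protocols. The submitters' processing notes name cutadapt, STAR, featureCounts, DESeq2 and the build mm10. For their versions, the annotation, strand setting and multi-mapped reads, details were not given in the sources used here, so close copies and overlapping genes are uncertain. Symbols and coordinates come from GENCODE mouse release M21 on the same build (52403 of 52550 identifiers matched).

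Low genes were removed with filterByExpr and libraries scaled by TMM. The test was edgeR 4.0.16 (R 4.3.3), quasi-likelihood with robust estimation, genotype being the sole term, and Benjamini-Hochberg adjustment ran over 11893 genes. The procedure was tested on simulated data. Alternatives were DESeq2 1.42.0, limma 3.58.1, other filters and scalings, a replicate block, and each library left out. Within groups, counts of any 2 libraries differed beyond sampling noise (chi-square per degree of freedom 2.22 to 4.98 over 16 pairs). Named genes were the Dppa genes, Klf2 and Klf4, per list up to 4 passing genes of smallest adjusted p and up to 2 others of at least 20 CPM, all tested neighbours bar predicted genes, and the 5 genes of most like pattern. Fbxo15, Sox15, Prdm14, Dazl, Ddx4, Dnd1, Zbed3, Pias4, Syce1, Col4a1 and list genes with too few reads were named after their values were seen. A few further genes selected by this rule are not reported here. The members and lists were chosen with earlier results of these data known.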

Additional observations from a re-analysis of the deposited data

Results flagged for a closer look

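In a group of 4 or 5 libraries a value was set apart when its gap to the nearest other exceeded Dixon's 95% limit as a share of the range. Of 136 groups of values looked at (67 genes and the Dppa2 to Dppa4 ratio, in each group) 9 met this, where chance alone sets apart about 1 in 20. The ratio of Dppa2 over Dppa4 was the one value of the Dppa genes among them, at -1.41 in DKO 1 on the log2 scale against -1.76 to -1.67 in the other libraries labelled DKO. Among the neighbours, Gdf3 was high in DKO 4 (242 CPM against 214 to 222), Foxj2 was high in DKO 2 (13.8 CPM against 10.5 to 11.3), Eef1a1 was low in DKO 3 (288 CPM against 347 to 365) and Mto1 was low in WT 3 (20.9 CPM against 24.0 to 24.4). Of the listed and like genes, Uhrf1 was low in WT 1 (215 CPM against 226 to 228), Nlrp4f was high in WT 2 (35.8 CPM against 30.3 to 30.6) and Sssca1 was high in WT 1 (82.0 CPM against 75.8 to 76.4). Klf4 was low in WT 2 (775 CPM against 863 to 878). The low Dppa3 of DKO 3 did not reach the limit.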

How the results depend on the processing

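Each Dppa gene kept its direction and its side of the threshold under every alternative run: 18 each, and 19 for Dppa3, whose counts were also summed with those of Dppa3-ps, a choice made after seeing the data. The log2 fold changes ranged from 4.60 to 4.88 for Dppa3, at least 0.91 for Dppa5a, -0.32 to -0.24 for Dppa4 and -0.14 to -0.07 for Dppa2, with adjusted p up to 0.000124, 4.72e-11, 0.00119 and 0.532. The log2 ratio of Dppa2 over Dppa4 differed by 0.11 to 0.22 (exact permutation p 0.0536 to 0.179). Genes called numbered 4943 to 6075, against 5689. In the 2-cell-like list 0 were called in the main fit. With no low-count filter 2 were called, with limma-voom 1 and with the replicate block 1, all downward. Syce1 was not among the 2 called with no filter (edgeR adjusted p = 0.0702). With a library left out 0 to 1 were called, this being Syce1, downward, without DKO 4 or DKO 5. The log2 fold change of Slc17a5 changed sign with a library left out (-0.20 to 0.11). Necap1 lost its call without WT 3 (adjusted p = 0.0536 in edgeR). With 1 library left out, calls were gained by Senp1 (without DKO 3), Senp6 and Fbxo9 (WT 3), Dnmt1 (DKO 3 or WT 2), Alpl (DKO 1, DKO 3, WT 2 or WT 3), and Gid8 and Usp37 (DKO 1), at adjusted p of 0.0263 to 0.0486. The cause was not tested. Deviations of same-numbered libraries correlated weakly, at 0.01 to 0.08. This was above the best other pairing (-0.01 to 0.03) for replicates 1, 3 and 4, but not for replicate 2. Whether same-numbered libraries shared a batch was not tested. With the replicate block 5530 genes were called. The log2 fold changes were then 4.62 for Dppa3, 0.94 for Dppa5a, -0.28 for Dppa4 and -0.08 for Dppa2. With that block Ddx43 no longer passed (log2 fold change -0.38, adjusted p = 0.0642 in edgeR), whereas Apobec1 (0.93, adjusted p = 0.00806) and Syce1 (-0.64, adjusted p = 0.0299) did. At 6035642 to 7098530 counts a library, Dppa1, Dppa3-ps and most 2-cell genes had too few reads to test.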
